A study of Homo sapiens with 30 samples.

Results

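Parental SUM190 cells exposed to 10 nM paclitaxel for 72 h were compared with parental cells in DMSO, the vehicle. SUM190 is an established line of inflammatory breast cancer, an epithelial line known for a high level of the receptor ERBB2. The 4 libraries of this comparison, 2 at 10 nM paclitaxel and 2 in DMSO, were chosen by their labels from 30 libraries in 15 groups of 2. A gene was tested if it reached 1 CPM (read counts per library size, as scaled by the authors with TMM factors) in at least 2 of the 30 libraries, which held for 12743 of 20114 genes. Parental cells at 2.5 nM paclitaxel, paclitaxel-resistant cells at 10 nM paclitaxel and paclitaxel-resistant cells in DMSO, with 2 libraries each, were used to place the response. In all 5 groups drugs or vehicle went on 24 h after seeding and poly-A RNA was taken from the culture 72 h later. The labels name no clone and do not say whether the 2 libraries of a group came from separate cultures. A p-value here therefore reflects only how far such libraries scatter, pooled over all 15 groups, which may be technical.

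Paclitaxel binds beta-tubulin inside the microtubule wall and stops microtubules from shortening. Dividing cells then fail to attach and align their chromosomes, the spindle assembly checkpoint holds them in mitosis, and they die there or leave mitosis without dividing, often with several small nuclei. The series concerns JAK-STAT signalling, in which cytokine receptors of the IL6 family activate JAK kinases and STAT factors, in chemotherapy resistance. In bulk RNA, fewer cells of a type or cycle stage and less RNA per cell cannot be told apart.

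The 4 libraries held 19291273 to 32669995 reads, and a gene at 0 may still have up to 3 reads, or 0.0967 to 0.147 CPM, for counting error only. The label names an epithelial line, and the epithelial markers EPCAM and KRT8 were present in all 4 libraries. EPCAM, an epithelial adhesion molecule, had 347 and 412 CPM at 10 nM, against 401 and 338 CPM in DMSO. KRT8, a keratin of simple epithelia, had 896 and 827 CPM at 10 nM, against 763 and 948 CPM in DMSO. For both genes the groups overlapped and the difference did not pass the test, whereas other epithelial genes moved, such as the keratin KRT19, which fell. Of 21 markers of stromal, endothelial and immune cells, 3 (CD3D, MS4A1 and TYROBP) were at 0 in all 4 libraries. The summed level of the 21 markers was 52.1 and 47.7 CPM at 10 nM, against 28.2 and 31.8 CPM in DMSO, and without CD68, a lysosomal protein that many cells make, 15.6 and 14.0 CPM against 10.6 and 13.3 CPM. Of the 8 markers tested, 5 rose and 1 fell, and the part of other cells in the results below was not tested. The 10 nM libraries had 16087 and 15884 genes above 0, against 14583 and 14919 in DMSO. Replicates differed by more than sampling noise, with a chi-square per degree of freedom of 15.0 at 10 nM and 37.7 in DMSO. The value in DMSO was the largest of all 15 groups. Across genes, the difference between replicates followed the GC content of transcripts, with a Spearman rho of -0.67 at 10 nM and 0.80 in DMSO.

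At a Benjamini-Hochberg adjusted p under 0.05 in limma, 6141 genes (48.2% of those tested) differed between 10 nM paclitaxel and DMSO. Of these, 2560 (20.1%) rose and 3581 (28.1%) fell. Most differences were small: 317 genes rose and 149 fell by a log2 of at least 1, where the log2 difference is that of log2(CPM + 1), which understates the change of low genes. Both 10 nM libraries lay above both DMSO libraries for 3566 genes and below both for 4505. The median log2 difference over all genes tested was -0.045. The test used a spread pooled over all 15 groups. Replicates of these 2 groups differed by more than those of most groups, so for a typical gene it understates their spread. The median absolute log2 difference between replicates was 0.2107 in DMSO and 0.1593 at 10 nM. Over the groups it ran from 0.0576 to 0.2114. A fit to these 4 libraries alone, with their own spread and far fewer degrees of freedom, called 3238 genes. After a correction for transcript GC content and length, 7694 genes were called, among them 13 that are named without a call here or in the closing observations, namely BIRC2, E2F1, E2F2, HDAC6, IL6ST, KIF18B, MCM3, PGAP3, PLK4, PTGS2, RHOA, TUBA1B and VEGFA. Among 1402 tested members of 62 gene lists, 334 rose and 536 fell. For each list below, the shares to compare are the 20.1% of all genes tested that rose and the 28.1% that fell. A list near these shares does not stand out as a list.

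**Figure D1:**
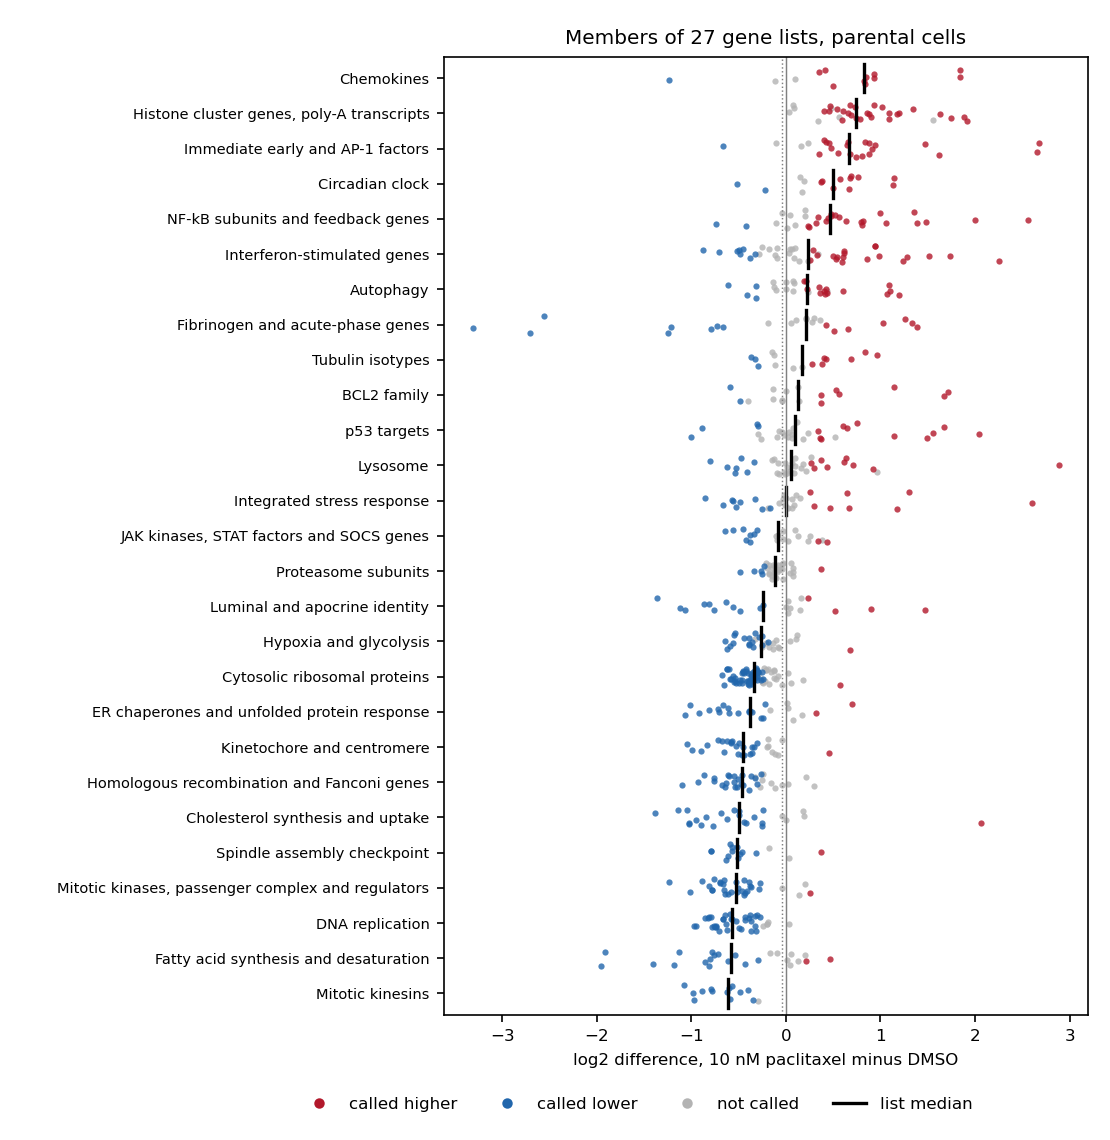
Log2 differences, 10 nM paclitaxel minus DMSO in parental cells, of the tested members of 27 of the 62 gene lists. Each point is a gene (red called higher, blue called lower, grey not called), the black bar is the list's median and the dotted line is the median of all 12743 genes, -0.045. Medians run from 0.83 for chemokines to -0.62 for mitotic kinesins, and several lists near 0 hold members far out on both sides.

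The genes of the drug's own target moved in both directions. Of 15 tubulin isotypes tested, 7 rose and 3 fell, with a median log2 difference of 0.17. TUBB2A, a beta-tubulin isotype, had 39 and 38.6 CPM at 10 nM, against 18 and 21 CPM in DMSO. Both 10 nM libraries were above both DMSO libraries, and the log2 difference was 0.96 ± 0.10 (limma adjusted p = 5.92e-08). TUBB3, the beta-tubulin isotype most discussed in taxane resistance, also rose, by 0.40. TUBB, the main beta-tubulin of dividing cells, had 1073 and 988 CPM at 10 nM, against 1190.3 and 1411 CPM in DMSO. Here both 10 nM libraries were below both DMSO libraries (log2 difference -0.33 ± 0.07). TUBG1, the gamma-tubulin that nucleates microtubules at centrosomes, fell as well (-0.37), a call that was lost without 10 nM replicate 2 or DMSO replicate 2. TUBA1B, the alpha-tubulin isotype of most cells, had 1681 and 1597 CPM at 10 nM, against 1669 and 1908 CPM in DMSO, and its difference did not pass the test. Tubulin isotypes share long stretches of sequence, so reads may be split between them. Without DMSO replicate 1, 4 tubulins were called higher instead of 7, and TUBB3 was not among them.

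Proteins that bind and modify microtubules were as divided. Of 28 microtubule-associated proteins, 7 rose (4 without DMSO replicate 1) and 6 fell, against 20.1% and 28.1% of all genes tested. MAP1B, which binds along microtubules and is known from growing nerve fibres, had 29 and 24.2 CPM at 10 nM, against 8.10 and 7.51 CPM in DMSO. Its log2 difference of 1.64 ± 0.15 was the largest of the list, with no overlap between groups (limma adjusted p = 6.21e-09). MAP7D2 (1.12) and MAP1A (0.83) rose from low levels. STMN1, stathmin, which binds free tubulin dimers and favours microtubule shortening, had 149 and 155 CPM at 10 nM, against 246 and 247 CPM in DMSO. The 10 nM libraries were both lower, by a log2 of -0.69 ± 0.06. MAPT, the gene of tau, which binds microtubules at a site near that of taxanes, had 3.96 and 4.31 CPM at 10 nM, against 6.68 and 7.19 CPM in DMSO and also fell (-0.63). ATAT1, the acetyltransferase that marks stable microtubules on the inside, rose by 0.76. HDAC6, which removes that mark, had 10.8 and 10.8 CPM at 10 nM, against 10.5 and 14.6 CPM in DMSO, and its difference did not pass the test. 

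Most genes of the mitotic lists fell, in shares that differed by list. All 13 mitotic kinesins that passed the test fell, of 14 tested, with a median log2 difference of -0.62. The one that did not pass, KIF18B, had 18.4 and 14.1 CPM at 10 nM, against 18 and 22 CPM in DMSO, and it passed without replicate 1 of either group. KIF11, the motor that pushes spindle poles apart, had 59.7 and 73.5 CPM at 10 nM, against 144 and 119.7 CPM in DMSO. The DMSO libraries were both far above the 10 nM libraries, at a log2 difference of -0.98 ± 0.14 (limma adjusted p = 3.79e-06). KIF20A, needed for cytokinesis, fell by 0.89, and KIF2C, which takes microtubules apart at kinetochores, fell by 0.61.

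Of 15 genes of the spindle assembly checkpoint, 12 fell and 1 rose (median -0.52). BUB1B, which encodes the checkpoint protein BUBR1, had 71.2 and 67.1 CPM at 10 nM, against 123 and 118 CPM in DMSO. Its groups stood apart, with a log2 difference of -0.80 ± 0.09. MAD2L1, the checkpoint protein MAD2, fell by 0.57, and CDC20, its target, fell by 0.46. The member that rose was MAD2L1BP (0.37), which encodes a protein that binds MAD2 and helps to end the checkpoint. MAD1L1, the kinetochore anchor of MAD2, had 13.8 and 12.2 CPM at 10 nM, against 12.2 and 13.2 CPM in DMSO and did not pass the test.

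Of 30 genes of kinetochores and centromeres, 22 fell and 1 rose. The largest differences were those of CENPI (-1.05), of SPC25 (-1.0), a subunit of the NDC80 complex that holds microtubules, and of NUF2 (-0.90), another of its subunits. The member that rose was MIS12 (0.46), a subunit of the complex that joins centromere and kinetochore. Of 32 mitotic kinases and regulators, 28 fell and 1 rose. ASPM, a spindle pole protein, had 67.1 and 73.2 CPM at 10 nM, against 190.5 and 144 CPM in DMSO. That was the largest fall of the list, -1.23 ± 0.16 (limma adjusted p = 1.33e-06). CCNB1, cyclin B1, which drives entry into mitosis, had 168 and 177 CPM at 10 nM, against 299.8 and 284 CPM in DMSO. The 2 groups were again apart, at -0.76 ± 0.09. CDK1, its kinase, fell by 0.89, and so did PLK1 (-0.81) and the proliferation marker MKI67 (-0.58). WEE1, which keeps CDK1 off, was the member that rose (0.26), and its call was lost without any 1 of the 4 libraries.

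Condensin and cohesin shape and hold chromosomes. Of 21 genes of both complexes and their regulators, 11 fell, or 7 without DMSO replicate 1, and 1 rose (MAU2, which helps to load cohesin, 0.26, with its call lost without replicate 1 of either group). Among those that fell were the condensin subunits NCAPG2 (-0.85), NCAPH (-0.81) and SMC2 (-0.71). Of the cohesin ring itself, SMC1A fell (-0.60), whereas RAD21 had 411 and 499.7 CPM at 10 nM, against 539 and 437 CPM in DMSO and SMC3 had 104 and 122 CPM at 10 nM, against 125 and 110.1 CPM in DMSO. For these 2 ring subunits the difference did not pass the test.

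Promoters of mitotic genes are known to carry a cell cycle homology region, bound by the MuvB complex with MYB or FOXM1, and a CCAAT box, bound by NF-Y. The letters TTTGAA or TTCGAA stood on either strand in 62 of 114 mitotic list genes with a promoter in RefSeq (GRCh38.p14, 250 bases before to 50 after the start), or 54.4%, against 16.6% of all 27305 promoters. CCAAT stood in 67 of the 114 (58.8%), against 35.7% of all. The homology region letters were in 51 of 83 members that fell, in 0 of 4 that rose and in 11 of 27 that did not pass the test. The promoter of ASPM, the mitotic gene with the largest fall that has these letters, is shown with both motifs in capitals. It lies at chr1:197146620-197146919 of GRCh38.p14, minus strand, and is written 5′ to 3′ along the gene.
ASPM: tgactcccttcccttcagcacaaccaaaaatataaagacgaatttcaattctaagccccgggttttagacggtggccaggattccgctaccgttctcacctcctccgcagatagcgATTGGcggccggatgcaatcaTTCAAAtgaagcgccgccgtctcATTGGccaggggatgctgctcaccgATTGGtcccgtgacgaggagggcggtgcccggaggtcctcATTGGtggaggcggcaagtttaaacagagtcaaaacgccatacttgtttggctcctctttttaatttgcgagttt
A match of letters is a description and does not show that a factor binds there.

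Most genes that copy and mend DNA fell as well. Of 39 genes of DNA replication, 34 fell and 0 rose (median -0.57). POLA1, the catalytic subunit of the polymerase that starts each strand, had 25 and 26.2 CPM at 10 nM, against 53.2 and 48.8 CPM in DMSO. RRM2, a subunit of the enzyme that makes deoxynucleotides, had 305 and 341 CPM at 10 nM, against 675 and 574 CPM in DMSO. Both genes were lower in each 10 nM library than in any DMSO library, at -0.97 ± 0.08 for POLA1 and -0.95 ± 0.10 for RRM2 (limma adjusted p = 1.48e-07 for RRM2). Of the MCM helicase subunits, MCM6 (-0.63) and MCM5 (-0.53) fell, while MCM3 had 124 and 114 CPM at 10 nM, against 128 and 143 CPM in DMSO and did not pass. The letters TTTNNCGC, the core of an E2F site, stood in 20 of 34 replication gene promoters (58.8%), against 6.9% of all. They were in 16 of 29 members that fell and in 4 of 5 with no call.

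Of 33 homologous recombination and Fanconi genes, 23 fell and 0 rose. BRIP1, the helicase that works with BRCA1, had 9.37 and 11.1 CPM at 10 nM, against 24.7 and 21.5 CPM in DMSO. It fell by 1.10, more than the others of the list, and the groups did not overlap. BRCA1 itself fell by 0.54 and FANCI, a clamp loaded on DNA crosslinks, fell by 0.92. BRCA2 had 45.7 and 51.2 CPM at 10 nM, against 59.3 and 49.5 CPM in DMSO, with no call.

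Of 21 cyclins, CDK inhibitors and RB family genes, 10 fell and 3 rose (1 without 10 nM replicate 1 or without DMSO replicate 1). CDKN2B, the inhibitor p15 of CDK4 and CDK6, had 96.8 and 107 CPM at 10 nM, against 51.1 and 52.2 CPM in DMSO. It rose by 0.96 ± 0.09 with no overlap (limma adjusted p = 6.98e-09). CDKN1A, the inhibitor p21, had 71.6 and 62.4 CPM at 10 nM, against 45.7 and 57.6 CPM in DMSO, a smaller rise of 0.38 ± 0.11 that did not pass without 10 nM replicate 1 or DMSO replicate 1. RB1, the retinoblastoma protein that holds back E2F, had 28.4 and 35.6 CPM at 10 nM, against 61.9 and 49.5 CPM in DMSO and fell by 0.78. The E2F repressors E2F7 (-1.05) and E2F8 (-0.63) fell, while the activators E2F1 (-0.17), E2F2 (-0.13) and E2F3 (-0.07) did not pass the test.

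Of 30 targets of p53, 11 rose and 4 fell, the falls numbering 2 without replicate 2 of either group. GADD45A, a stress sensor, had 67.8 and 75.5 CPM at 10 nM, against 16.3 and 16.9 CPM in DMSO. SFN, the 14-3-3 sigma protein that can hold cells in G2, had 261 and 212 CPM at 10 nM, against 69 and 99.6 CPM in DMSO. Both rose without overlap, GADD45A by 2.04 ± 0.10 and SFN by 1.49 ± 0.14 (limma adjusted p = 5.47e-13 for GADD45A). MDM2, the feedback inhibitor of p53, had 123 and 122 CPM at 10 nM, against 142 and 120.4 CPM in DMSO, with no call. CCNG1, another classical p53 target, had 31.6 and 43.3 CPM at 10 nM, against 89.4 and 63.3 CPM in DMSO and fell by 1.0.

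Among 17 BCL2 family genes, 7 rose (4 without DMSO replicate 1) and 2 fell. Those with the largest rises encode BH3-only proteins, which trigger apoptosis by binding the guardians of the family. BMF, a BH3-only protein first found on the actin cytoskeleton and motors, had 36.2 and 32.8 CPM at 10 nM, against 8.38 and 11.5 CPM in DMSO. BBC3, the BH3-only protein PUMA, had 7.88 and 6.96 CPM at 10 nM, against 1.26 and 2.10 CPM in DMSO. The 10 nM libraries were above the DMSO libraries throughout, by 1.71 ± 0.16 for BMF and 1.67 ± 0.18 for BBC3 (limma adjusted p = 1.41e-07 for BBC3). PMAIP1, NOXA, rose by 1.15 and BCL2L11, BIM, by 0.56. MCL1, the guardian that paclitaxel is known to deplete as a protein in mitosis, had 464 and 516 CPM at 10 nM, against 528 and 454 CPM in DMSO, with no call. BCL2L1, the guardian BCL-XL, rose by 0.38, but not without 10 nM replicate 1 or DMSO replicate 1.

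Of 27 caspases, death receptors and inhibitors of apoptosis, 7 rose and 8 fell, near the shares of all genes tested (20.1% and 28.1%). BIRC3, the inhibitor of apoptosis cIAP2 and a target of NF-kB, had 1059.9 and 1313 CPM at 10 nM, against 231 and 172 CPM in DMSO. The rise was 2.56 ± 0.17, with no overlap (limma adjusted p = 8.02e-11). The paralogue BIRC2 had 81.8 and 107 CPM at 10 nM, against 93 and 70.9 CPM in DMSO, with no call. CASP8, the caspase of death receptors, rose by 0.48. TNFSF10, the death ligand TRAIL, had 173 and 206 CPM at 10 nM, against 412 and 327 CPM in DMSO and fell by 0.96.

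NF-kB subunits and their feedback genes were mostly higher. Of 30 genes, 21 rose and 2 fell, with a median log2 difference of 0.46. TNFAIP3, the feedback inhibitor A20, had 50.8 and 46.8 CPM at 10 nM, against 10.2 and 12.8 CPM in DMSO. RELB, the subunit of the non-canonical branch, had 10.2 and 9.60 CPM at 10 nM, against 2.55 and 3.29 CPM in DMSO. Both genes were higher in each 10 nM library than in any DMSO library, by 2.0 ± 0.11 for TNFAIP3 and 1.48 ± 0.12 for RELB (limma adjusted p = 2.61e-12 for TNFAIP3). NFKB2, the partner of RELB, rose by 0.99, beside 0.42 for RELA and 0.24 for NFKB1 of the canonical branch, whose calls were lost without DMSO replicate 1 (RELA also without 10 nM replicate 1). BCL3, an inhibitor-like cofactor, had 47.1 and 40.3 CPM at 10 nM, against 66.2 and 81.4 CPM in DMSO and fell by 0.74. The letters of the kappa-B site were in 10 of 26 promoters of the list (38.5%), against 10.8% of all, namely in 5 of 18 members that rose, 1 of 2 that fell and 4 of 6 with no call. The promoter of BIRC3, the member with the largest rise, holds 2 of them, in capitals. It lies at chr11:102317234-102317533 of GRCh38.p14, plus strand.
BIRC3: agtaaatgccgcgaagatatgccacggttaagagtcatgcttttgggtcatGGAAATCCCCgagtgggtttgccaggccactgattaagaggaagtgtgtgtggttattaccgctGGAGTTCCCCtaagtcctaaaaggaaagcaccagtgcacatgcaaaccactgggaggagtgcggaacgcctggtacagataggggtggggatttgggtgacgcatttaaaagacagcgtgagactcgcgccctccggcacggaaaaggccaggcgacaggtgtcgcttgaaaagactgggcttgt
The matches lie within the 250 bases before the start, and their use in these cells was not measured.

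Of 13 chemokines, 10 rose and 1 fell (median 0.83). IL8, which attracts neutrophils, had 619.5 and 916 CPM at 10 nM, against 246 and 179 CPM in DMSO. All 10 nM values were above all DMSO values, and the log2 difference was 1.84 ± 0.18. CCL22, which attracts T cells through CCR4, had 8.29 and 5.63 CPM at 10 nM, against 1.30 and 1.10 CPM in DMSO, and rose by 1.84 ± 0.17. CCL20 rose by 0.93 and CXCL2 by 0.94. CXCL17, a mucosal chemokine, had 20.6 and 22 CPM at 10 nM, against 49.6 and 53.5 CPM in DMSO and fell by 1.24. In a list of 21 genes of the interleukin 1 and TNF families, which also holds CSF2 of neither family, 10 rose and 3 fell. CSF2, the growth factor GM-CSF, had 5.20 and 4.16 CPM at 10 nM, against 0.486 and 0.645 CPM in DMSO, a rise of 1.86 ± 0.17. IL1A (0.13), IL1B (0.13) and PTGS2 (0.14), genes of canonical inflammation, did not pass the test.

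Interferon-stimulated genes were split. Of 41 tested, 19 rose and 8 fell. RSAD2, viperin, had 9.86 and 9.16 CPM at 10 nM, against 1.05 and 1.35 CPM in DMSO. IFIT2, which binds foreign RNA, had 29 and 20.5 CPM at 10 nM, against 5.67 and 7.74 CPM in DMSO. Both were higher in each 10 nM library, by 2.26 ± 0.22 for RSAD2 and 1.74 ± 0.14 for IFIT2 (limma adjusted p = 2.88e-08 for RSAD2). Among the members that fell were BST2 (-0.51) and IFITM2 (-0.71). MX1 had 3.05 and 2.65 CPM at 10 nM, against 2.83 and 2.68 CPM in DMSO, with no call. IRF1, a factor shared by NF-kB and interferon pathways, had 78.2 and 71.8 CPM at 10 nM, against 35.1 and 42.6 CPM in DMSO and rose by 0.94 ± 0.10. The letters GAAANNGAAA, the core of an interferon-stimulated response element, were in 22 of 32 promoters of the list (68.8%), against 3.6% of all. They were in 11 of 16 members that rose, 4 of 5 that fell and 7 of 11 with no call. The promoter of HERC5 is shown as an example among the members with the larger rises, with 3 matches in capitals, the first 2 of which overlap.
HERC5: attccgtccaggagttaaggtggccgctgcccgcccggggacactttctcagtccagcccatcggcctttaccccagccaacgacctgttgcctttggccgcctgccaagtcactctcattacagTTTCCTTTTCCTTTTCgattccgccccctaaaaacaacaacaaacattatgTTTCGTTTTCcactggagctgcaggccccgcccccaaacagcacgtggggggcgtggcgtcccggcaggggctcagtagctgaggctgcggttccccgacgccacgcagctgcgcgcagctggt
It lies at chr4:88456869-88457168 of GRCh38.p14, plus strand, and HERC5, which attaches ISG15 to proteins, had 1.94 and 1.86 CPM at 10 nM, against 0.162 and 0.226 CPM in DMSO. Its rise was 1.28 ± 0.18.

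Among 18 genes of cytosolic nucleic acid sensing, 4 rose and 3 fell, against 20.1% and 28.1% of all genes tested. TMEM173, which encodes STING, had 8.91 and 7.89 CPM at 10 nM, against 5.1 and 5.90 CPM in DMSO and rose by 0.53 ± 0.13. MB21D1, the DNA sensor cGAS, had 4.54 and 6.03 CPM at 10 nM, against 6.11 and 5.29 CPM in DMSO, with no call. TREX1, which degrades cytosolic DNA, rose by 0.82. SAMHD1, which breaks down deoxynucleotides, had 17.4 and 18 CPM at 10 nM, against 37.6 and 34.2 CPM in DMSO and fell by 0.98. Of 23 antigen presentation genes, 10 rose and 0 fell, the rises numbering 5 without 10 nM replicate 1 and 6 without DMSO replicate 1. MICB, a stress ligand of natural killer cells, had 3.96 and 3.23 CPM at 10 nM, against 0.607 and 0.967 CPM in DMSO, a rise of 1.37 ± 0.19. MICA, its paralogue, rose by 0.82.

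In the pathway the series is about, a receptor rose and several kinases and factors fell. IL6R, the IL6 receptor, had 124 and 114 CPM at 10 nM, against 36.1 and 39.9 CPM in DMSO. The rise of 1.63 ± 0.08 was the largest of 19 IL6-family cytokines and receptors (limma adjusted p = 2.40e-13). Of the 19, 5 rose and 4 fell, against 20.1% and 28.1% of all genes tested. IL6ST, the shared signalling chain gp130, had 286 and 346 CPM at 10 nM, against 294 and 218 CPM in DMSO, and IL6 itself had 15.8 and 19.4 CPM at 10 nM, against 15.5 and 16.5 CPM in DMSO. Neither passed the test, though IL6ST did without replicate 1 of either group. LIF rose by 0.61. Of 21 JAK, STAT and SOCS genes, 8 fell and 2 rose, or 0 without DMSO replicate 1. JAK2 had 17.3 and 20 CPM at 10 nM, against 30 and 26 CPM in DMSO and fell by 0.56, while JAK1 had 138 and 149.9 CPM at 10 nM, against 162 and 147 CPM in DMSO, with no call. STAT3, the factor downstream of gp130, had 186 and 165 CPM at 10 nM, against 206 and 227 CPM in DMSO and fell by 0.30. SOCS3, the feedback gene of STAT3, had 8.66 and 7.84 CPM at 10 nM, against 6.64 and 8.32 CPM in DMSO, with no call.

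Acute-phase genes, which IL6 is known to induce in liver, moved in opposite directions. Of 23, 7 rose and 8 fell. FGB, the fibrinogen beta chain, had 117 and 134 CPM at 10 nM, against 1334 and 1169 CPM in DMSO, the largest fall of any gene named (-3.31 ± 0.12). FGG, the gamma chain, had 668 and 824 CPM at 10 nM, against 4824 and 3941 CPM in DMSO. Its fall was -2.55 ± 0.11 (limma adjusted p = 3.43e-14). CP, ceruloplasmin, had 490.4 and 529 CPM at 10 nM, against 1271 and 1108 CPM in DMSO and fell by 1.22. By contrast SAA1, serum amyloid A, had 36.2 and 35.2 CPM at 10 nM, against 13.8 and 20.9 CPM in DMSO, and rose by 1.03 ± 0.15. Its near-identical neighbour SAA2 rose by 1.26, and reads of the 2 may be split. C1R, which starts the complement cascade, had 7.22 and 7.06 CPM at 10 nM, against 1.90 and 2.58 CPM in DMSO, and rose by 1.34 ± 0.14.

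**Figure D2:**
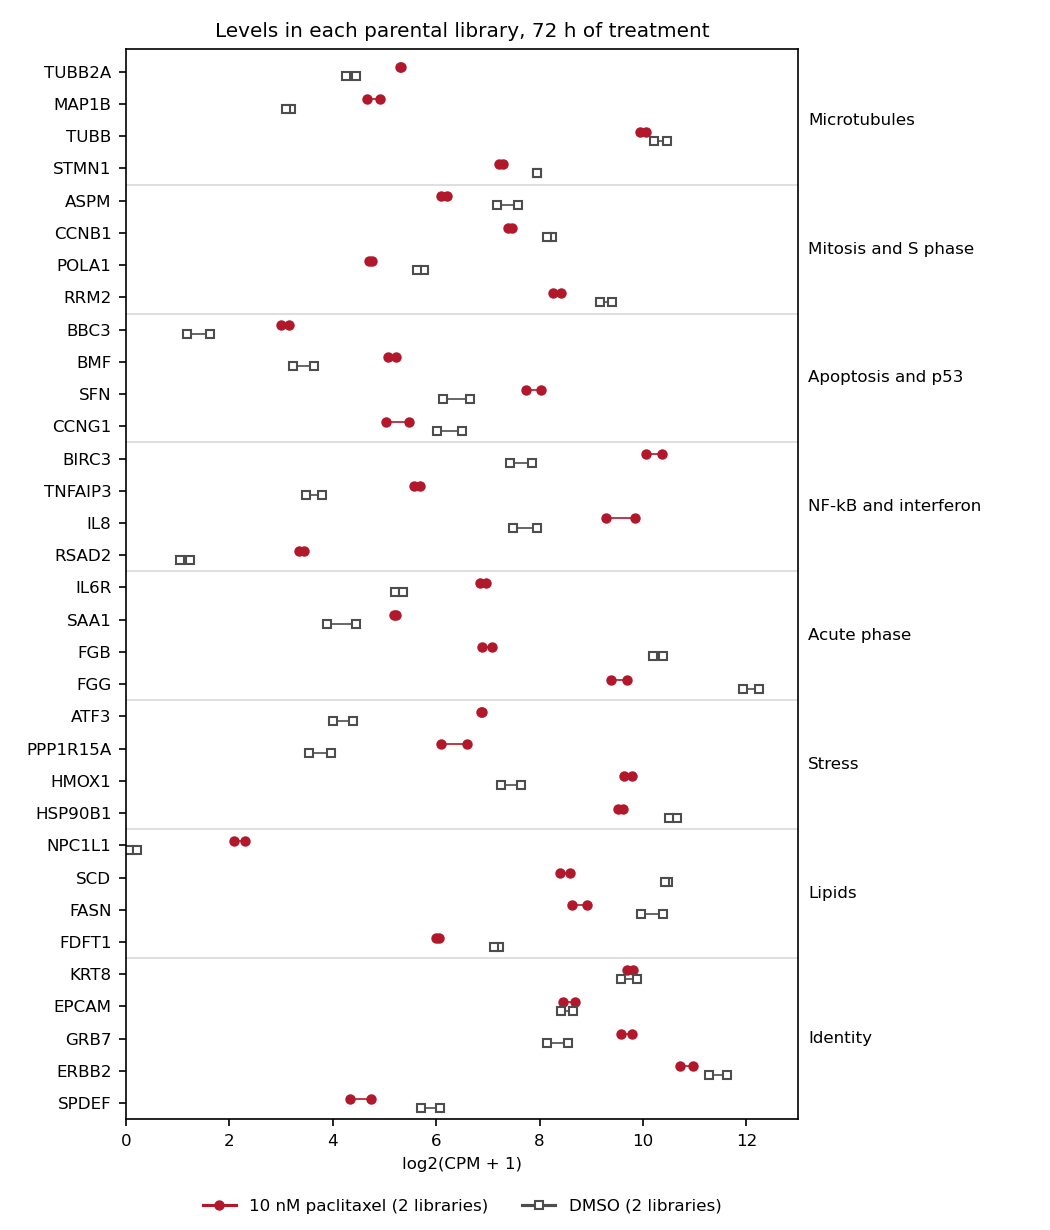
Levels of 33 genes as log2(CPM + 1) in each library of parental cells after 72 h; filled red circles are the 2 libraries at 10 nM paclitaxel, open squares the 2 in DMSO, and a line joins replicates. The groups stand apart for every gene drawn except KRT8 and EPCAM, whose libraries overlap.

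Immediate early and AP-1 genes, which respond within minutes to growth factors and stress, were mostly higher after 72 h. Of 24, 20 rose and 1 fell (median 0.67). ATF3, a stress-induced factor of the ATF family, had 117 and 115 CPM at 10 nM, against 15 and 19.8 CPM in DMSO. MAFF, a small MAF factor, had 61.5 and 58.7 CPM at 10 nM, against 7.04 and 10.8 CPM in DMSO. The 10 nM values of both lay far above the DMSO values, by 2.68 ± 0.12 for ATF3 and 2.65 ± 0.14 for MAFF (limma adjusted p = 1.10e-13 for ATF3). FOSL1, the AP-1 subunit FRA1, rose by 1.62 and FOSB by 1.47. MYC had 117 and 114 CPM at 10 nM, against 105 and 102 CPM in DMSO, with no call. BHLHE40, a repressor that also acts in the clock and in hypoxia, had 137 and 127 CPM at 10 nM, against 205 and 215 CPM in DMSO and fell by 0.67. Of 16 phosphatases and Sprouty or SPRED genes that damp MAP kinases, 9 rose and 2 fell. SPRY4 had 23.2 and 20.7 CPM at 10 nM, against 8.22 and 8.54 CPM in DMSO and rose by 1.29 ± 0.10, whereas DUSP6, the phosphatase most used as a readout of ERK, had 77.4 and 82.2 CPM at 10 nM, against 103 and 95.2 CPM in DMSO and fell by 0.31.

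The integrated stress response, in which phosphorylated eIF2 raises translation of ATF4 and then of stress and amino acid genes, held members that rose and members that fell. Of 29 genes, 8 rose and 9 fell, not far from the shares of all genes tested (20.1% and 28.1%). PPP1R15A, GADD34, which brings the phosphatase to eIF2, had 96 and 67.6 CPM at 10 nM, against 10.6 and 14.6 CPM in DMSO. DDIT3, the factor CHOP, had 44 and 41.2 CPM at 10 nM, against 15.9 and 17.6 CPM in DMSO. Both were higher in each 10 nM library than in DMSO, by 2.60 ± 0.16 for PPP1R15A and 1.30 ± 0.11 for DDIT3. The serine synthesis genes PHGDH (-0.85), PSAT1 (-0.57) and SHMT2 (-0.67) fell. ATF4 had 429 and 390.1 CPM at 10 nM, against 354 and 432 CPM in DMSO and ASNS, its target asparagine synthetase, had 340.1 and 394 CPM at 10 nM, against 413 and 361 CPM in DMSO. Neither passed the test.

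Of 24 genes of ER folding and the unfolded protein response, 17 fell and 2 rose (median -0.38). XBP1, the factor that drives the ER programme of secretory cells, had 560.5 and 566 CPM at 10 nM, against 1173 and 1183 CPM in DMSO. HSP90B1, the chaperone GRP94, had 732 and 784 CPM at 10 nM, against 1622 and 1449 CPM in DMSO. Both were lower in each 10 nM library, with log2 differences of -1.06 and -1.02. ERN1, the sensor IRE1 that splices XBP1 RNA, had 64.3 and 59.7 CPM at 10 nM, against 36.9 and 38.4 CPM in DMSO and rose by 0.70 ± 0.07. Cytosolic heat shock genes were mixed, with 5 higher (3 without DMSO replicate 2) and 6 lower of 22. These counts are near the shares of all genes tested (20.1% and 28.1%). HSPB8, a small heat shock protein that hands misfolded proteins to autophagy, had 34.2 and 37.7 CPM at 10 nM, against 10.4 and 11 CPM in DMSO and rose by 1.65 ± 0.09. HSPA8, the constitutive HSC70, fell by 0.49.

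Most genes of lipid synthesis fell. Of 25 genes of cholesterol synthesis and uptake, 20 fell and 1 rose (median -0.50). STARD4, which carries sterol through the cytosol, had 22.1 and 23.4 CPM at 10 nM, against 70 and 53.3 CPM in DMSO. FDFT1, which makes squalene, had 65.6 and 62.6 CPM at 10 nM, against 147 and 138 CPM in DMSO. The DMSO libraries were above the 10 nM libraries in both, the log2 differences being -1.39 ± 0.13 and -1.14 ± 0.09 (limma adjusted p = 4.80e-10 for FDFT1). The member that rose was NPC1L1, which absorbs sterol in the gut, with 3.96 and 3.23 CPM at 10 nM, against 0.0405 and 0.161 CPM in DMSO. Its rise of 2.06 ± 0.14 started from values close to the floor of 3 reads. The letters TCACNCCAC, one form of a sterol regulatory element, were in 0 of the 19 promoters of this list found in RefSeq, against 1.1% of all, which says only that these letters are not in this window.

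Of 24 fatty acid genes, 15 fell and 2 rose (0 without 10 nM replicate 1 or without DMSO replicate 1). SCD, the desaturase that makes oleate, had 382 and 338 CPM at 10 nM, against 1436 and 1368 CPM in DMSO. FASN, fatty acid synthase, had 483 and 395 CPM at 10 nM, against 996 and 1348 CPM in DMSO. No 10 nM value reached a DMSO value, and the log2 differences were -1.96 ± 0.10 for SCD and -1.40 ± 0.15 for FASN (limma adjusted p = 5.47e-13 for SCD). FADS1 (-1.13) and FADS2 (-1.92), which desaturate polyunsaturated chains, and ACACA (-0.86), which makes malonyl-CoA, fell as well. SREBF1, the factor that drives these genes, had 41.3 and 38.6 CPM at 10 nM, against 76.2 and 90.9 CPM in DMSO and fell by 1.04. SREBF2, its sterol counterpart, fell by 0.61. PLIN2, a coat protein of lipid droplets, had 102 and 112 CPM at 10 nM, against 67.5 and 69 CPM in DMSO and rose by 0.63 ± 0.08.

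Autophagy genes held more rises than falls. Of 28, 14 rose and 4 fell (median 0.22), the falls numbering 2 without 10 nM replicate 1 or without DMSO replicate 1. SQSTM1, the receptor p62 that links ubiquitin to autophagosomes, had 1180.3 and 1056 CPM at 10 nM, against 429.9 and 548 CPM in DMSO. GABARAPL1, which coats autophagosomes, had 52.1 and 52.1 CPM at 10 nM, against 20.9 and 27 CPM in DMSO. Both rose without overlap, by 1.20 ± 0.10 and 1.10 ± 0.10. MAP1LC3B, the coat protein LC3B, rose by 1.07 and OPTN, another receptor, by 1.09. ATG7, the enzyme that starts coat conjugation, had 28.4 and 30.1 CPM at 10 nM, against 46.7 and 43.8 CPM in DMSO and fell by 0.61. Lysosomal genes were mixed, 9 higher and 7 lower of 36, against 20.1% and 28.1% of all genes tested. GPNMB, a lysosomal glycoprotein of stressed and phagocytic cells, had 8.66 and 10.3 CPM at 10 nM, against 0.445 and 0.387 CPM in DMSO. At 2.88 ± 0.15 it had the largest rise of any gene named (limma adjusted p = 5.66e-13). LIPA, the lysosomal acid lipase, had 43.6 and 53.2 CPM at 10 nM, against 95.1 and 75.9 CPM in DMSO and fell by 0.81.

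Xenobiotic and redox genes moved in both directions. Of 10 aryl hydrocarbon receptor genes, 6 rose and 0 fell. CYP1A1, the monooxygenase most used as a readout of the receptor, had 87.5 and 75.4 CPM at 10 nM, against 9.79 and 11.4 CPM in DMSO. It rose by 2.83 ± 0.14, with the groups far apart. CYP1B1, another target, had 702 and 831 CPM at 10 nM, against 818 and 639.8 CPM in DMSO, with no call. Of 26 NRF2 targets and redox enzymes, 8 rose and 9 fell. HMOX1, which degrades heme, had 888 and 798 CPM at 10 nM, against 152 and 198 CPM in DMSO, a rise of 2.27 ± 0.11. The NADPH and aldo-keto genes PGD (-0.75) and AKR1C1 (-1.05) fell, though AKR1C1 to AKR1C3 are near-identical copies. NQO1, a classical NRF2 target, had 1261 and 1292 CPM at 10 nM, against 1173 and 1205 CPM in DMSO, with no call. ABCB1, the paclitaxel efflux pump P-glycoprotein, was below the level for testing, and CYP3A5, which oxidises many drugs, rose by 1.18.

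Luminal and apocrine identity genes moved in both directions, with more falls than rises. Of 21 genes, 11 fell and 4 rose. SPDEF, an ETS factor of luminal and secretory cells, had 25.8 and 19.1 CPM at 10 nM, against 51.6 and 66.2 CPM in DMSO. FOXA1, the pioneer factor of luminal cells, had 156 and 170.2 CPM at 10 nM, against 306 and 251 CPM in DMSO. Both were lower in each 10 nM library, with log2 differences of -1.36 and -0.76. AGR2, an ER disulfide isomerase of mucin-secreting cells, fell by 0.87 and KRT19 fell by 0.81. PIP, an apocrine secretory protein, had 11 and 9.90 CPM at 10 nM, against 3.20 and 3.03 CPM in DMSO and rose by 1.47 ± 0.16. Among 18 genes of the cornified envelope, 8 rose and 7 fell. CASP14, the caspase of keratinising skin, had 126 and 116 CPM at 10 nM, against 548 and 602 CPM in DMSO and fell by 2.24. S100A8 (-1.44) and S100A9 (-1.11), the subunits of calprotectin, fell together, whereas SPRR1A, a cross-linked envelope protein, had 17.2 and 15.4 CPM at 10 nM, against 3.32 and 5.19 CPM in DMSO and rose by 1.74 ± 0.19.

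Growth factor receptors and their ligands held both falls and rises. Of 18 genes, with the adaptor GRB7 among them, 6 rose and 6 fell. The largest fall of the list was that of the receptor ERBB4 (-1.02). ERBB2 had 2008 and 1686 CPM at 10 nM, against 2469 and 3140.4 CPM in DMSO. The 10 nM libraries were both lower, at a log2 difference of -0.60 (limma adjusted p = 1.67e-04). ERBB3, its partner, fell by 0.59, and EGFR had 183 and 182 CPM at 10 nM, against 184 and 192 CPM in DMSO, with no call. Of the ligands, HBEGF (1.01), EREG (0.82), TGFA (0.71) and AREG (0.62) rose. GRB7, an adaptor encoded next to ERBB2 in the amplicon, had 886 and 761 CPM at 10 nM, against 280.4 and 376 CPM in DMSO, and rose by 1.34 ± 0.13. Of 17 IGF signalling genes, 10 fell and 4 rose. IGFBP5, which binds IGFs outside the cell, had 49.6 and 39.4 CPM at 10 nM, against 219 and 253 CPM in DMSO and fell by 2.38. IRS1, a docking protein of the IGF and insulin receptors, fell by 0.83.

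Matrix and cytoskeletal genes were mixed too. Of 13 mesenchymal genes, 4 rose and 6 fell. FN1, fibronectin, had 12.2 and 15.7 CPM at 10 nM, against 37.8 and 39.7 CPM in DMSO and fell by 1.42. RHOB, a small GTPase of stress and endosomes, had 125 and 141 CPM at 10 nM, against 48.8 and 47.1 CPM in DMSO. Its rise was 1.45 ± 0.08, whereas RHOA had 325 and 337 CPM at 10 nM, against 377 and 353 CPM in DMSO, with no call. Actin genes ACTB (-0.25) and ACTG1 (-0.25) were called lower, but not without replicate 2 of either group. Of 26 actin and SRF genes, 11 fell, with 6 without 10 nM replicate 2 and 7 without DMSO replicate 2. LAMB3, a laminin chain of epithelial basement membrane, rose by 1.25, and ITGB4, part of its receptor, fell by 0.65.

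Genes of protein synthesis and energy supply differed by list. Of 76 ribosomal protein genes, 55 fell and 1 rose, but 32 fell without DMSO replicate 2. RPL3 had 711 and 658 CPM at 10 nM, against 1008 and 1183 CPM in DMSO, at a log2 difference of -0.67 ± 0.09. Hypoxia and glycolysis genes numbered 30, of which 17 were lower and 1 higher. LDHA, lactate dehydrogenase, had 1610.5 and 1687 CPM at 10 nM, against 2467 and 2366 CPM in DMSO and fell by 0.55. VEGFA had 261 and 237 CPM at 10 nM, against 249.6 and 277 CPM in DMSO, with no call. Of 13 mitochondrially encoded genes, 1 rose and 0 fell (median 0.44). The median was -0.03 without DMSO replicate 1 and 0.98 without DMSO replicate 2. After a correction for GC content and length, 0 of the 13 rose. These transcripts differed between the DMSO replicates, MT-ND1 having 972 and 855 CPM at 10 nM, against 402 and 755 CPM in DMSO. Of 33 proteasome genes, 5 fell, against 17 after a correction for GC content and length, 2 without 10 nM replicate 1 and 8 without 10 nM replicate 2.

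Most poly-A transcripts of histone cluster genes rose. Of 33, 26 rose and 0 fell (median 0.74). HIST1H1C, the linker histone H1.2, had 81.5 and 74.7 CPM at 10 nM, against 18.9 and 22.1 CPM in DMSO. All 10 nM values were above all DMSO values, at 1.88 ± 0.12 (limma adjusted p = 3.79e-11). HIST1H2BK rose by 0.68. Most mRNA of these genes is known to end in a stem-loop without a poly-A tail, so a poly-A library samples a small part of it, and near-identical copies may share reads. Of the histones made outside S phase and their chaperones, 9 of 17 fell (6 without DMSO replicate 1), with H2AFZ at -0.50 and the chaperone ASF1B at -0.73. HDAC9, a class IIa deacetylase, had 21.5 and 31.8 CPM at 10 nM, against 3.04 and 3.09 CPM in DMSO. Its rise of 2.74 ± 0.21 was the largest of 21 histone deacetylases and demethylases, of which 7 rose and 5 fell. HDAC1 (0.14) and HDAC3 (0.02) had no call, and HDAC4 (-0.61) fell.

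Most clock genes rose. Of 15, 10 rose and 2 fell (median 0.50). NR1D1, the repressor REV-ERB alpha, had 63.6 and 59.7 CPM at 10 nM, against 23.6 and 31.6 CPM in DMSO. PER1, a core repressor of the clock, had 53.2 and 39 CPM at 10 nM, against 17 and 24 CPM in DMSO. Both were higher in each 10 nM library, by 1.15 ± 0.13 and 1.13 ± 0.17. CLOCK, the activator, had 243 and 276 CPM at 10 nM, against 419 and 329 CPM in DMSO and fell by 0.52, a call lost without DMSO replicate 1.

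The 15 largest rises and falls, among called genes with a mean of at least 5 CPM in one group and no overlap, included genes of no list. DHRS2, a mitochondrial reductase, had 10.4 and 12.9 CPM at 10 nM, against 0.890 and 1.52 CPM in DMSO, and rose by 2.53 ± 0.16. VGF, a secreted neuropeptide precursor, had 8.0 and 6.03 CPM at 10 nM, against 0.445 and 0.645 CPM in DMSO, and rose by 2.37 ± 0.19. CREBRF, a regulator of the stress factor CREB3, had 30.7 and 34 CPM at 10 nM, against 6.19 and 5.19 CPM in DMSO, and rose by 2.32 ± 0.12. In all 3 the 10 nM libraries were several times higher than the DMSO libraries. ALPP, the placental alkaline phosphatase, had 6.23 and 6.42 CPM at 10 nM, against 0.364 and 0.419 CPM in DMSO, a rise of 2.40 ± 0.14, and has near-identical paralogues. Among the falls, PRODH, proline dehydrogenase of mitochondria, had 6.48 and 7.50 CPM at 10 nM, against 29.3 and 34.2 CPM in DMSO, and fell by 2.03. HPGD, which inactivates prostaglandins, had 6.02 and 7.35 CPM at 10 nM, against 31.6 and 22.7 CPM in DMSO, and fell by 1.86. EID3 (2.55) and CMYA5 (2.35) were the other rises outside the lists, and FGL1 (-2.01), RARRES1 (-2.0), STXBP5L (-1.98), UGT2B11 (-1.95), MUC5B (-1.89) and MXRA5 (-1.80) the other falls.

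The dose series placed these changes. In parental cells, 3508 genes (27.5%) differed between 10 nM and 2.5 nM paclitaxel, of which 1551 (12.2%) were higher and 1957 (15.4%) lower at 10 nM. Without replicate 2 of the 10 nM group the count was 1540, and without replicate 2 of the 2.5 nM group 2186. SPDEF had 51.6 and 66.2 CPM in DMSO, 52.5 and 52.6 CPM at 2.5 nM and 25.8 and 19.1 CPM at 10 nM. The 2.5 nM libraries lay within the DMSO range and the 10 nM libraries below it, with a log2 difference of -1.21 ± 0.14 for 10 against 2.5 nM (limma adjusted p = 2.33e-06), while -0.15 ± 0.14 for 2.5 nM against DMSO did not pass. KIF11 had 144 and 119.7 CPM in DMSO, 91.1 and 80 CPM at 2.5 nM and 59.7 and 73.5 CPM at 10 nM. Its difference from DMSO was -0.61 ± 0.14 at 2.5 nM, and the step to 10 nM, -0.36 ± 0.14, just missed the threshold (limma adjusted p = 0.0506), and no difference between the 2 steps was tested for either gene. SCD had 1436 and 1368 CPM in DMSO, 681 and 668 CPM at 2.5 nM and 382 and 338 CPM at 10 nM, and each step passed (-1.05 ± 0.10 and -0.91 ± 0.10). NOX5, an NADPH oxidase, had 349 and 419.5 CPM in DMSO, 320.3 and 315 CPM at 2.5 nM and 128 and 109 CPM at 10 nM, with a step of -1.43 ± 0.09 to 10 nM. CLU, the chaperone clusterin, had 3.4 and 4.58 CPM in DMSO, 6.39 and 8.73 CPM at 2.5 nM and 21.3 and 18.8 CPM at 10 nM, with a step of 1.31 ± 0.16. Comparisons that share the 10 nM or the DMSO libraries are not independent of each other.

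Over all genes tested, 15.4% were lower and 12.2% higher at 10 than at 2.5 nM. Of the mitotic lists, kinesins had 10 of 14 members lower at 10 than at 2.5 nM, kinetochore genes 7 of 30 and the replication list 23 of 39. Of NF-kB genes 10 of 30 were higher at 10 than at 2.5 nM, of immediate early genes 11 of 24 and of histone cluster genes 6 of 33. Hypoxia and glycolysis genes had 16 of 30 lower at 10 than at 2.5 nM, and ribosomal protein genes 18 of 76.

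**Figure D3:**
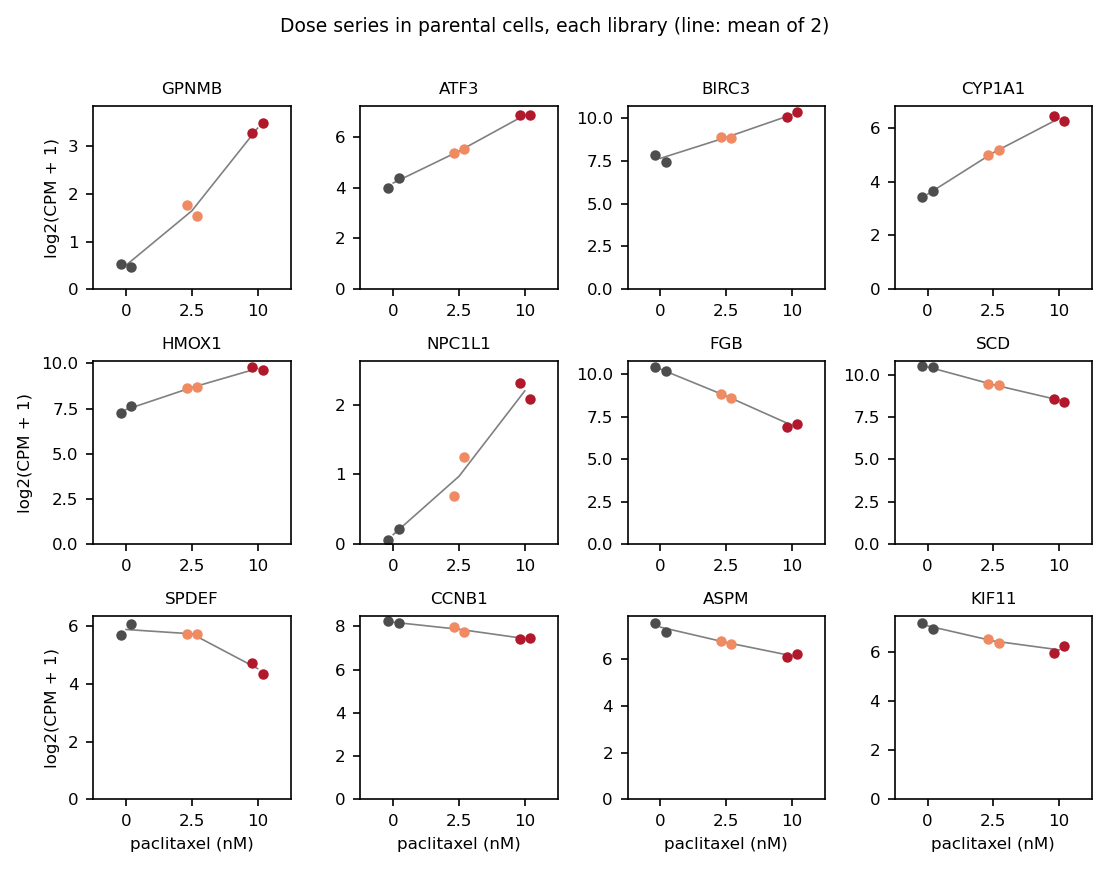
Levels of 12 genes as log2(CPM + 1) in parental cells at 0 (DMSO), 2.5 and 10 nM paclitaxel, drawn at even steps; each point is a library and the line joins means of 2. GPNMB, ATF3, BIRC3, CYP1A1, HMOX1 and NPC1L1 climb with dose and FGB and SCD drop at each step, while SPDEF lies within the DMSO range at 2.5 nM and below it at 10 nM, and KIF11 lies below DMSO at both doses.

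Whether the same dose acted differently in the paclitaxel-resistant line was tested as the difference of responses, resistant minus parental. It passed for 1369 genes (10.7%), 874 higher (6.86%) and 495 lower (3.88%) in that difference, or 674 higher and 573 lower with median-of-ratios scaling. The median absolute log2 response was 0.15 in resistant cells and 0.269 in parental cells. Scatter between replicates also enters this measure. In resistant cells, replicates differed by a median absolute log2 of 0.0576 in DMSO and 0.1247 at 10 nM. The parental values were 0.2107 and 0.1593. The part of this scatter in the larger parental response was not tested. Across the 12743 genes, which are not independent replicates, the responses had a Spearman rho of 0.7. In resistant cells 844 of the 12743 genes rose and 891 fell, by adjusted p with no limit on size. Of the 317 genes that rose by a log2 of at least 1 in parental cells, 198 also rose in resistant cells by that rule. Of the 149 that fell as far, 108 also fell in resistant cells. Without replicate 1 of resistant DMSO the count for the difference of responses was 639, and without replicate 2 it was 727. Without replicate 1 of resistant cells at 10 nM it was 680, whereas it was 3561 after a correction for transcript GC content and length.

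FGB differed most, with a response of -0.73 in resistant and -3.31 in parental cells on the log2 scale and a difference of 2.57 ± 0.16 (limma adjusted p = 1.07e-09). In resistant cells FGB had 200.2 and 168 CPM at 10 nM, against 320.2 and 292 CPM in DMSO. MAFF had a response of 1.06 in resistant and 2.65 in parental cells, a difference of -1.59 ± 0.19, and BIRC3 had a response of 1.26 in resistant and 2.56 in parental cells, a difference of -1.30 ± 0.24. HMOX1 went the other way, with a response of 2.80 in resistant and 2.27 in parental cells and a difference of 0.52 ± 0.16. GPNMB had a response of 2.85 in resistant and 2.88 in parental cells, and the difference of -0.03 ± 0.21 did not pass. CYP1A1 had a response of 2.27 in resistant and 2.83 in parental cells, and the difference of -0.56 ± 0.19 did not pass either. C2orf54 had a response of -1.70 in resistant and -0.08 in parental cells, a response that passed in resistant cells and not in parental ones (difference -1.62 ± 0.18).

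Of all genes tested, the difference was higher for 6.86% and lower for 3.88%. By list, the difference was higher for 21 of 39 replication genes, 13 of 32 mitotic kinases and regulators and 10 of 24 ER genes. It was lower for 12 of 24 immediate early genes, 8 of 41 interferon-stimulated genes and 6 of 30 NF-kB genes. RRM2 had a response of -0.25 in resistant and -0.95 in parental cells, and KRT8 had a response of -0.17 in resistant and 0.02 in parental cells. Of cholesterol genes 2 of 25 were higher in the difference, near the share of all genes tested (6.86%). LSS had a response of -0.62 in resistant and -1.05 in parental cells, a difference that did not pass. MT1X, a metallothionein, had a response of -1.21 in resistant and -1.30 in parental cells, with no call for the difference (0.10 ± 0.16).

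**Figure D4:**
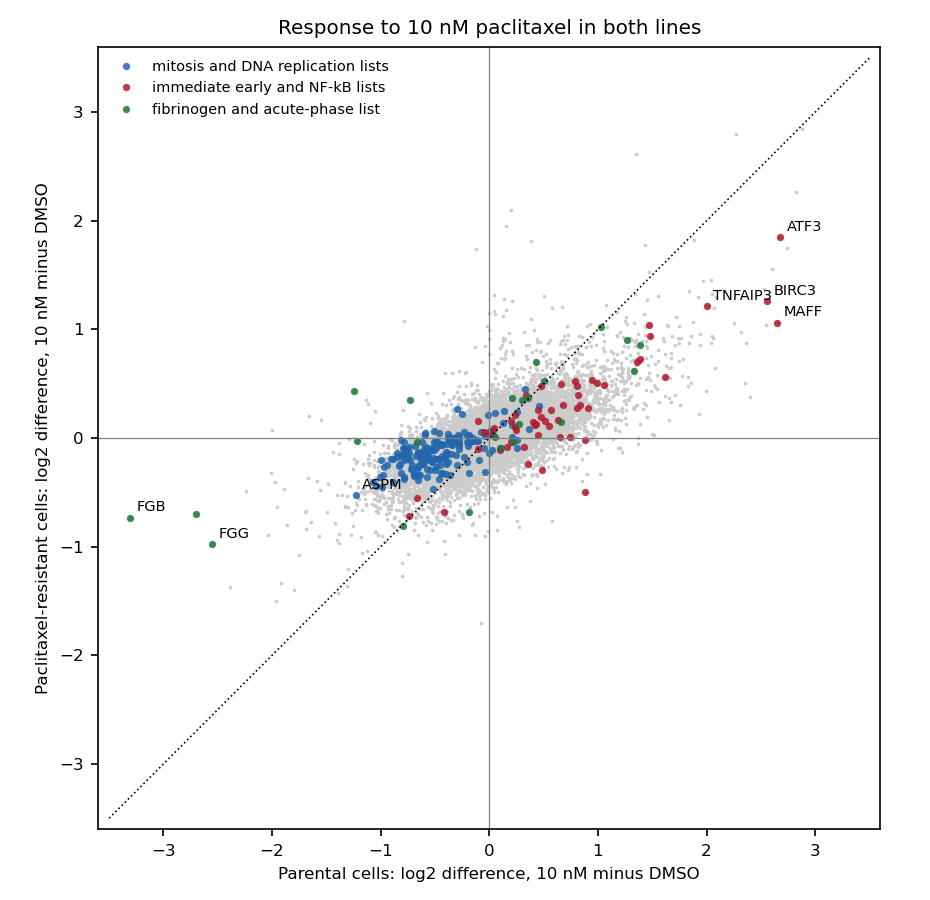
Log2 response to 10 nM paclitaxel, drug minus DMSO, in paclitaxel-resistant cells (vertical axis) and parental cells (horizontal axis); grey points are the 12743 genes tested, coloured points list members, and the dotted line marks equal responses. FGB is at -0.73 in resistant and -3.31 in parental cells.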

How the data were processed

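Per the labels' protocols, poly-A RNA libraries were made from SUM190 cells after 72 h of treatment. The submitters' processing notes name STAR 2.5.1b for alignment, GRCh37 (hg19) as the genome and edgeR. The read counter and its annotation were not given in the sources used here. Values as deposited are log2(CPM + 1), which the authors made with TMM scaling, for 20114 gene symbols in 30 libraries. All of them came out as whole multiples of 1 read, within a tolerance of 0.01, and this gave the reads per library.

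A limma 3.58.1 means model of 15 groups (R 4.3.3, trend and robust moderation) was fitted to 12743 genes with at least 1 CPM in at least 2 libraries. It had 15 residual degrees of freedom, and the prior added 8.08 at the median gene. Tests were two-sided, with Benjamini-Hochberg adjustment over all genes in each of 3 comparisons and a threshold of 0.05. Values after ± are standard errors. The procedure was tested on simulated data.

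Named genes are members of 62 lists (1538 genes in the table, 1402 tested, 7 entries with no row) or the 15 largest differences in each direction (8 for the other comparisons) among called genes with a mean of at least 5 CPM in a group and no overlap between groups. Some single genes of these lists are not reported here. The members and lists were chosen with earlier results of these data known. As alternatives, the pseudocount was set to 0.25 CPM, the filter dropped, median-of-ratios scaling or a replicate block used, fewer groups fitted, each library left out, voom fitted to recovered reads, or differences corrected for GC content and length of GENCODE v29 transcripts (found for 99.4% of genes). GC correction with a DMSO library left out and a crossed pairing were chosen after seeing the data. Same-numbered 10 nM and DMSO libraries deviated from their group means with a correlation of -0.63, so the numbers were not taken to pair samples. Promoters came from RefSeq tables of GRCh38.p14, another build than that of the reads. Other steps used Python 3.11.15, pandas 2.3.3, numpy 2.4.6 and matplotlib 3.10.9.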

Additional observations from a re-analysis of the deposited data

Results flagged for a closer look

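The response to 10 nM paclitaxel, drug minus DMSO, differed between the paclitaxel-resistant and the parental line for 1369 genes by limma's test of the difference of responses. Genes with the largest such differences, resistant minus parental on the log2 scale, were FGB (2.57), RARRES1 (2.08), FGA (2.0), MGP (1.87), KRT4 (1.86), CASP14 (1.75), FGL1 (1.69) and ORM1 (1.68) on the higher side. On the lower side they included ALPP (-2.02), CMYA5 (-1.85), GEM (-1.71), C2orf54 (-1.62), MAFF (-1.59), EID3 (-1.50) and VGF (-1.49). Of the genes on the higher side, FGA, MGP and FGL1 were low in resistant DMSO, at means of 1.71, 1.35 and 1.07 CPM. Their means in parental DMSO were 8.87, 28.1 and 12.2 CPM. From such low levels, these genes could not fall as far on the log2(CPM + 1) scale as they did in parental cells. MGP, an inhibitor of calcification, had a response of 0.20 in resistant and -1.66 in parental cells. RARRES1, a retinoid-induced gene, had a response of 0.08 in resistant and -2.0 in parental cells. KRT4, a keratin of stratified epithelia, had a response of 1.07 in resistant and -0.78 in parental cells, so the 2 lines moved in opposite directions. With voom on recovered reads, ALPP (-0.80, adjusted p = 0.629 in limma) and EID3 (-1.01, adjusted p = 0.353) did not pass. In resistant cells ALPP had 0.530 and 0.152 CPM at 10 nM, against 0.0422 and 0 CPM in DMSO. These DMSO values lie under the floor of 3 reads, where adding 1 CPM before the log shrinks a change.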

How the results depend on the processing

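Of 224 genes named for 10 nM paclitaxel against DMSO, each called one kept its direction under every alternative run. The 6141 calls became 3238 when only the 4 libraries were fitted, and 4768 to 5874 with 1 library left out. The 3508 calls for 10 against 2.5 nM became 1899 with parental groups only and 1540 to 3531 with 1 library left out. The 1369 calls for the difference of responses became 3561 after GC and length correction, 3496 when this went with a replicate block, 3206 and 2930 when DMSO replicate 1 or 2 was also left out, and 639 to 1573 with 1 library left out without the correction. With the replicate block alone, the counts were 6032, 3381 and 1274, and no call of a named gene changed. With the crossed replicate block they were 6207, 3567 and 1405. Fitting only the 4 libraries ended 16 calls of named genes, leaving out a library ended 4 to 9, and the GC correction added 13 calls, among them IL6ST, MCM3, TUBA1B and E2F1. The cause was not tested. List counts of 2 or fewer, apart from that of mitochondrially encoded genes, moved by up to 2 with 1 library left out. Depth limits genes near the floor of 3 reads, such as NPC1L1 in DMSO.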

Other observations

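Other gene groups held smaller or mixed differences between 10 nM paclitaxel and DMSO in parental cells. Of 22 centrosome genes, 11 fell and 1 rose, with PLK4, which starts centriole copying, at 23.7 and 32.4 CPM at 10 nM, against 37.8 and 30.2 CPM in DMSO and no call. Of 21 tubulin folding and modifying factors, 6 fell and 2 rose, against 28.1% and 20.1% of all genes tested. Of 18 E2F and MYB-MuvB factors, 8 fell and 2 rose, with MYBL2 at -0.58. Of 21 TGF-beta and BMP genes, 10 fell (6 without DMSO replicate 1) and 3 rose. INHBA, a subunit of activin A, had 18 and 21 CPM at 10 nM, against 7.12 and 6.28 CPM in DMSO and rose by 1.41 ± 0.16, whereas ID1, a target of BMP signalling, had 56.9 and 54.5 CPM at 10 nM, against 79 and 109 CPM in DMSO and fell by 0.73. Of 19 YAP and TEAD targets, 5 rose and 6 fell (3 without 10 nM replicate 1), with CTGF at 0.69 among the rises. Of 42 nuclear-encoded respiratory chain genes, 17 fell and 1 rose. MT1X, a metallothionein with near-identical copies, had 359 and 335 CPM at 10 nM, against 762 and 965 CPM in DMSO and fell by 1.30. GJB2, a connexin, had 219.7 and 222 CPM at 10 nM, against 419 and 376 CPM in DMSO and fell by 0.84. In the ERBB2 amplicon, MIEN1 had 1082 and 930.1 CPM at 10 nM, against 668 and 859 CPM in DMSO and rose by 0.41, beside the rise of GRB7 (1.34) and the fall of ERBB2 (-0.60), and PGAP3 had 336 and 299 CPM at 10 nM, against 285 and 356 CPM in DMSO with no call.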
